A study of Mus musculus with 6 samples.

Results

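Retained introns of 200 bases or more were taken from a deposited table of splicing events in Neuro-2a (N2a), a cell line grown from a mouse neuroblastoma. An event belonged here when it stood in the retained-intron section of the table and the distance between its upstream and downstream exon was at least 200 bases. The rule was met by 1602 of 2703 retained introns and of 45595 splicing events of every kind, and they lay in 1218 genes. The series asked how alternative splicing differs in N2a cells without hnRNP DL, one of the hnRNPs, which bind RNA in the nucleus and take part in splicing. Per the labels, the 6 RNA-seq libraries are 3 of wild type and 3 of the hnRNP DL knockout, and the labels do not say whether the knockout is 1 clone or how the gene was disrupted. The table names its columns only sample 1 and sample 2, with 3 libraries in each, and nothing in it ties either to a genotype. They are called set 1 and set 2 here, and a difference between them has no direction with respect to the knockout. No source used here states that the libraries came from separate cultures, so the p-values measure the spread between these libraries, which may be technical.

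As background, most introns are cut out while a transcript is being made, and an intron is called retained when it stays in an otherwise processed RNA. A retained intron inside a coding sequence usually brings an early stop codon. Such transcripts can be held in the nucleus, where they are known as detained introns, or be exported and degraded by nonsense-mediated decay. A small class of introns is removed by the minor spliceosome, which contains the U11, U12, U4atac and U6atac RNAs and recognises a long, nearly invariant donor sequence; these introns are known to be spliced more slowly than others.

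The first letters of the introns were compared with that donor sequence. Of the 1602 introns, 1567 began with GT and ended with AG, 28 had GC-AG ends and 3 had AT-AC ends. At the intron's first bases, 12 (0.749%) carried the exact letters ATATCCTT (2 introns) or GTATCCTT (10 introns), searched on the transcribed strand only, against 2 (0.182%) of the retained introns under 200 bases. They are called minor-type donors here, which describes the letters and not which spliceosome was used. The donor windows below are printed because most of the introns that carry these letters are described further on; each has the last 10 exon bases followed by the intron, with the matched letters in capitals, in mouse GRCm38 sequence from the transcripts of GENCODE vM21.
Rpl4, chr9:64175301-64175583, plus strand: ctttggaaatGTATCCTTgattagtgctct
Selenom, chr11:3516521-3516841, plus strand: ttcaactgtaGTATCCTTttcctgttgtgg
Rfc5, chr5:117381914-117382335, minus strand: gcctacaaaaGTATCCTTttgggcaactgc
Tmem258, chr19:10206534-10207163, plus strand: ggttcttcgtGTATCCTTtatttgcagcca
Lsm5, chr6:56703034-56703313, minus strand: gactttgtcaGTATCCTTtttaaaagcggg
Pole2, chr12:69212272-69212986, minus strand: tagtaaagctATATCCTTtaaaaaaaaaaa
Tcea2, chr2:181686247-181686597, plus strand: atcgaggagtATATCCTTtgtacagggtat

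For comparison, donors with other letters are shown for 4 introns that are also described below, with the first 6 intron letters in capitals. Mat2a and Celf3 have GT donors, and Rack1 and Rps27a belong to the GC-AG introns.
Mat2a, chr6:72434396-72434980, minus strand: tcattgtcagGTAAAGatggtaaaacctat
Celf3, chr3:94488280-94488526, plus strand: caacgggaagGTGCCAgcctagggcagggt
Rack1, chr11:48801835-48802272, plus strand: atctcacaacGCAAGTagctgctttggaat
Rps27a, chr11:29546789-29547205, minus strand: gataaggaagGCAAGTaaagtttgtcacta

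At the other end, minor-spliceosome introns usually hold a branch sequence close to the acceptor. The letters CTTAAC or CTTGAC stood in the last 40 bases of 4 of the 11 minor-type introns that had enough reads to test. Among all introns with other donors, those with too few reads to test included, the share was 2.01%. The branch windows of 2 of them are printed with these letters in capitals, and after them the last 28 intron bases and 2 exon bases of Pole2, whose intron ends in AC.
Rpl4 branch: tgttaattCTTGACaaagaaaacag
Lsm5 branch: tttattttCTTAACattaaattcag
Pole2 acceptor: cttgagttcttcctcagctgctctgtACca

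The introns were 200 to 8856 bases long, with a median of 589 bases. There were 687 from 200 to under 500 bases, 426 from 500 to under 1000, 346 from 1000 to under 2000 and 143 longer ones. By the annotation, 1243 lay between coding exons, 48 in a 5′ UTR and 29 in a 3′ UTR. For the other 282, no protein-coding transcript was annotated as splicing them out. A spliced form was annotated for 1489 and an exon with the same outer ends for 1599. Transcripts that the annotation itself types as retained intron contained 1294 of them, and a protein-coding transcript contained 178. In 271 genes more than 1 intron met the rule, up to 7 in Taf1d, which encodes a factor of RNA polymerase I transcription and hosts several snoRNAs. Overlaps left 1399 separate stretches, so neighbouring events can share reads. Around the length limit, 42 introns of 200 to 209 bases and 33 of 190 to 199 bases had median levels of 0.0956 and 0.0862, over the 32 and 29 with enough reads. Just inside stood Rnpepl1 at exactly 200 bases, with levels of 0.0532 in set 1 and 0.0823 in set 2, and just outside an intron of Celf3 of 199 bases, at 0.0786 and 0.103.

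Where a reading frame could be followed into the intron, 1175 of 1212 (96.9%) met a stop codon inside it. Among retained introns under 200 bases this was 674 of 944 (71.4%). Only 17 introns had no stop and a length that kept the frame. The 12 of them with enough reads had a median inclusion level of 0.677, against 0.0568 for the 990 with a stop, and 7 of the 12 stood at 0.50 or more. The lowest were in Stard7, Naa10 and Atp13a2, at 0.0294, 0.0338 and 0.0591, and Naa10 held another at 0.71. Intron ends that other forms also use went with higher levels, as described below. Neither median was split by such ends, and 8 of the 12 had none. Examples of the 12 are an intron of Trps1, a GATA-type transcriptional repressor, at 0.943, 0.962 and 0.951 in the libraries of set 1 and 0.886, 0.929 and 0.931 in set 2, and one of Zbtb21, a zinc finger protein, at 0.411, 0.506 and 0.497 and at 0.548, 0.439 and 0.444. The Trps1 stretch, chr15:50831007-50831606, was high in each library, with all of set 1 above set 2, and that of Zbtb21, chr16:97950870-97951469, was at middle levels with overlapping sets. An intron of Maged2, a MAGE-family protein, stood between 0.978 and 0.995 in all 6 libraries. These introns lie between coding exons of an annotated transcript that splices them out. Whether an annotated form codes through them was not checked.

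The inclusion level runs from 0 to 1. It is the number of reads across the 2 exon-intron borders divided by the length of that form, over the same plus the reads across the exon-exon junction divided by theirs. Summed over all events, the junction read counts came to 13501749 to 18185394 per library. Of these, 296168 to 411355 were on the spliced junctions of these introns and 63678 to 88350 on their borders. A read can count in several events, so the sums are not numbers of separate reads. A mean of 20 reads or more over the 6 libraries was reached by 1292 introns (80.6%) in 985 genes, and the counts and tests below are over these. An intron's level is the mean of its 2 set means unless libraries are given. Levels compare forms of 1 intron, and in a bulk library a low level in every cell and a high level in a few cells cannot be told apart. The most covered event of Hnrnpdl itself held 1760 to 2014 reads in the libraries of set 1 and 2034 to 2569 in set 2; junction reads in this table do not check the deletion, and neither Hnrnpdl nor its paralogue Hnrnpd had an intron here. Of 17 markers of neuroblastoma and neurons 7 had an event, each with at least 20 reads on average (Chgb 1909, Gap43 1376), and of 26 markers of immune, glial, connective, endothelial, epithelial and muscle cells 4 had one, with at most 7.67 reads on average. No marker of those other cell types had an intron here.

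Most introns were retained in few transcripts. The median level was 0.0945 over the 1292 introns, 667 (51.6%) stood under 0.10 and 312 (24.1%) at 0.50 or more. A large part of the high levels belonged to introns whose ends are used by other spliced forms as well. At 651 of the 1602 introns (40.6%) an annotated exon covers an intron border without the intron being retained, because another form of the gene uses a longer exon (donor side 383, acceptor side 353, both 125) or because a different gene's exon lies there (76). Reads on such a border may come from that other form. With enough reads, 757 introns had both ends free and 535 had a shared end. The median level was 0.0461 with free ends and 0.286 with a shared end, and 11.5% and 42.1% stood at 0.50 or more. Retained introns under 200 bases with free ends had a median of 0.0842, over 698 introns. Library strand use is not given in the sources used here, so reads of overlapping genes on opposite strands may be mixed.

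**Figure D1:**
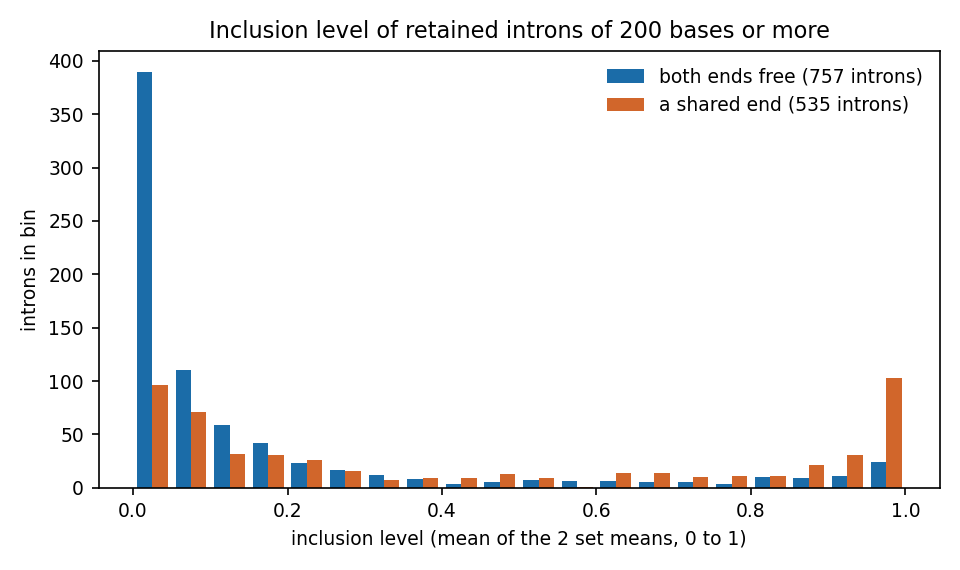
Number of introns (vertical axis) by inclusion level (horizontal axis, 0 to 1, the mean of the 2 set means) for introns with both ends free and with a shared end. The 757 introns with free ends pile up at low levels (median 0.0461), and the 535 with a shared end have a second peak near 1 (median 0.286).

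Among introns with free ends, the position in the transcript went with the level more than the length did. The 670 between coding exons had a median of 0.0385, the 10 in a 5′ UTR 0.471 and the 13 in a 3′ UTR 0.842. The other 64, with a median of 0.816, are not a position: no protein-coding transcript is annotated as splicing them out. Last introns had a median of 0.125 over 70, and the others 0.0436 over 687. By length, the medians were 0.0556 (200 to under 500 bases, 312 introns), 0.05 (500 to under 1000, 198), 0.0364 (1000 to under 2000, 183) and 0.0565 (longer, 64). Spearman's rho across the 757 introns was -0.0451 for length and 0.211 for GC content, given as a description since introns are not replicates. The consensus-like donor letters GTAAGT or GTGAGT opened 29% of the free-ended introns with a level under 0.10 and 14.9% of those at 0.50 or more.

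Of the 13 free-ended introns in a 3′ UTR, 8 stood at 0.50 or more, and 12 had the lower mean level in set 1. Among all 757 free-ended introns 64.7% were lower in set 1. Changes in the 13 ran from -0.156 in Gpm6b to 0.132 in Abraxas1, and none passed the quasi-binomial test. The intron of Ywhag, which encodes 14-3-3 gamma, stood at 0.969, 0.986 and 0.981 in set 1 and 0.987, 0.98 and 0.99 in set 2. The one of Txn2, the mitochondrial thioredoxin, stood at 0.987, 0.964 and 0.984 and at 0.985, 0.987 and 0.99. Both remained in almost every read of every library, with overlapping sets. The intron of Cdkn1b, the cell cycle inhibitor p27, was lower, at 0.138, 0.164 and 0.14 in set 1 and 0.15, 0.198 and 0.194 in set 2, where the sets overlap at 0.15 and 0.164.

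The 8 best covered introns with a level between 0.10 and 0.90 lay in Rpl10a, Mat2a, Arglu1, Srsf5, Srsf6, Ddx5, Hnrnph1 and Snhg1. Mat2a, which encodes the enzyme that makes S-adenosylmethionine and is a known case of a regulated last intron, stood at 0.494, 0.475 and 0.51 in set 1 and 0.563, 0.551 and 0.567 in set 2. Every set 1 value was under every set 2 value, with a mean difference of -0.0674, an unadjusted p of 0.0249 in the moderated quasi-binomial test and an adjusted p of 0.746. Arglu1, a nuclear speckle protein, stood at 0.462, 0.503 and 0.595 and at 0.509, 0.485 and 0.516, with set 2 inside the range of set 1. The SR splicing factors had lower levels: intron 6 of Srsf5 ranged from 0.264 to 0.316 in set 1 and from 0.298 to 0.33 in set 2, and that of Srsf6 from 0.119 to 0.128 and from 0.128 to 0.152. The Srsf5 sets overlapped, and those of Srsf6 met at 0.128 to this rounding.

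Neighbouring introns of a gene could differ widely. In Srsf5 the intron before that one, only 201 bases long, stood at 0.00352 at most in any library, although it was covered by as many reads (a mean of 1189 against 1155). Introns 9, 10 and 11 of Taf1d were closer, at 0.359, 0.312 and 0.363. Ddx5, an RNA helicase, held a shared-end intron at 0.183, 0.247 and 0.248 in set 1 and 0.243, 0.303 and 0.257 in set 2, overlapping between 0.243 and 0.248. Hnrnph1 stood at 0.882, 0.88 and 0.847 in set 1 and 0.819, 0.841 and 0.833 in set 2, all of set 1 higher, with an unadjusted p of 0.0502. The Rpl10a intron, in a ribosomal protein gene, had 7603 reads on average, the most of this group, and ran from 0.135 to 0.161 and from 0.0998 to 0.157. The Snhg1 intron that holds Snord22 stood at 0.0806 to 0.11 and 0.106 to 0.133. Like that of Ddx5, the introns of Hnrnph1, Rpl10a and Snhg1 have a shared end. For Rpl10a, Rps27a, Rack1 and Rpl4, reads of the spliced junction may be shared with processed copies of the gene elsewhere in the genome, as the handling of multiply mapping reads is not given in the sources used here.

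At the upper end of the scale, the introns of Ppp1cc, Ttll4, Tmem259, S100pbp and Cic had the highest levels at 50 reads or more, and each held at most 2 spliced reads in the 6 libraries together. Among them, those of Ppp1cc and S100pbp have a shared donor end, so their border reads may come from another form. No protein-coding transcript is annotated as splicing these 2 out. The Cic intron had 693 border reads and no spliced read in set 1, and 667 and 1 in set 2. Among the longest introns were those of Hace1, a ubiquitin ligase (8856 bases), and Fam53a (6583 bases). Hace1 stood at 0.0561, 0.0457 and 0.0467 in set 1 and 0.0462, 0.0365 and 0.016 in set 2, and Fam53a at 0.0213, 0.0169 and 0.0303 and at 0.0308, 0.0291 and 0.051, and both overlapped between the sets.

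No intron passed the test for a difference between the sets. The test was a moderated quasi-binomial test of border against spliced reads, fitted within each kind of event with dispersions moderated by limma. Benjamini-Hochberg adjustment ran over all 39419 events with enough reads. A call asked for an adjusted p under 0.05 and a change of 0.10 or more. The test called 11 events (0.0279%), none of them among the 1292 introns, whose smallest adjusted p was 0.147. Unadjusted, 90 introns (6.97%) had a p under 0.05, against 3.8% of all events tested, and 74 (5.73%) were also lower in set 1, against 1.73%. By kind, the share with an unadjusted p under 0.05 was 4.96% in retained introns under 200 bases and 3.47% in skipped exons. It was 4.5% in alternative acceptors and 5.09% in alternative donors. With limma on logit levels, over the 1291 introns with a level in every library, 0 were called and 99 had an unadjusted p under 0.05. That fit gave 1 intron, in U2af2, an adjusted p of 0.0273; it had 95 border and 0 spliced reads in set 1 and 99 and 3 in set 2, a difference that rests on 3 reads and was not past the size limit (0.0574).

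Small differences leaned to one side. Of the 1292 introns 814 (63.0%) had the lower mean level in set 1, against 45.7% of all events, 43.1% of skipped exons and 59.9% of the 927 retained introns under 200 bases. Alternative acceptors stood at 47.8% and alternative donors at 50.4%. The median change of the 1292 introns was -0.00415. In 116 introns (8.98%) all 3 libraries of set 1 lay below all 3 of set 2, and in 43 (3.33%) all lay above, against 2.7% and 3.23% of all events tested. Of those events 28647 were skipped exons, with 1.79% fully below and 3.14% fully above. The shares were 4.09% and 3.86% for alternative acceptors, and 4.41% and 3.17% for alternative donors. For retained introns of every length they were 8.16% and 3.06%. With both ends free, 490 of 757 introns (64.7%) were lower in set 1 and 70 (9.25%) lay fully below. Leaving out 1 library at a time, 57.7% to 65.5% of the 1292 introns were lower in set 1.

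Per library, the medians overlapped. They were 0.0797, 0.0923 and 0.0878 in set 1 and 0.0893, 0.0999 and 0.105 in set 2, so that library 1 of set 2 lay inside the range of set 1. Pooled over all these introns, border reads were 16.75%, 17.39% and 17.42% of reads in set 1 and 17.39%, 18.49% and 18.51% in set 2, which also overlap. The Wilson 95% interval of the last of these shares was 18.4% to 18.6%, and such intervals cover counting error only. With free ends the medians were 0.0403, 0.0442 and 0.0449 in set 1 and 0.0463, 0.0526 and 0.0492 in set 2, which did not overlap. Medians of retained introns under 200 bases were 0.0837, 0.0952 and 0.0944 and 0.0893, 0.106 and 0.104. In each set and each of these classes the library listed first had the lowest median, and it also had the largest summed junction count of its set. The part of depth in the set difference was not tested. The difference between the sets in the long introns' median minus that of the short ones was -0.00279. The SD of this measure between libraries was 0.00363 in set 2 (n = 3), and in set 1 (n = 3) it was smaller than the size of that difference. Libraries of the sets overlapped on this measure, so the medians did not tell the lean of the long introns from that of the short ones. Pooled border reads of the short introns went the other way, at 23.21%, 24.33% and 23.68% in set 1 and 21.24%, 22.62% and 22.21% in set 2, which did not overlap. Without the 10 short introns with the most border reads these shares were 9.03%, 9.79% and 9.85% and 8.92%, 10.3% and 10.1%, which overlapped with the higher mean in set 2, while the long introns kept the lower mean in set 1 without their own 10 (a difference of -0.967 percentage points).

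**Figure D2:**
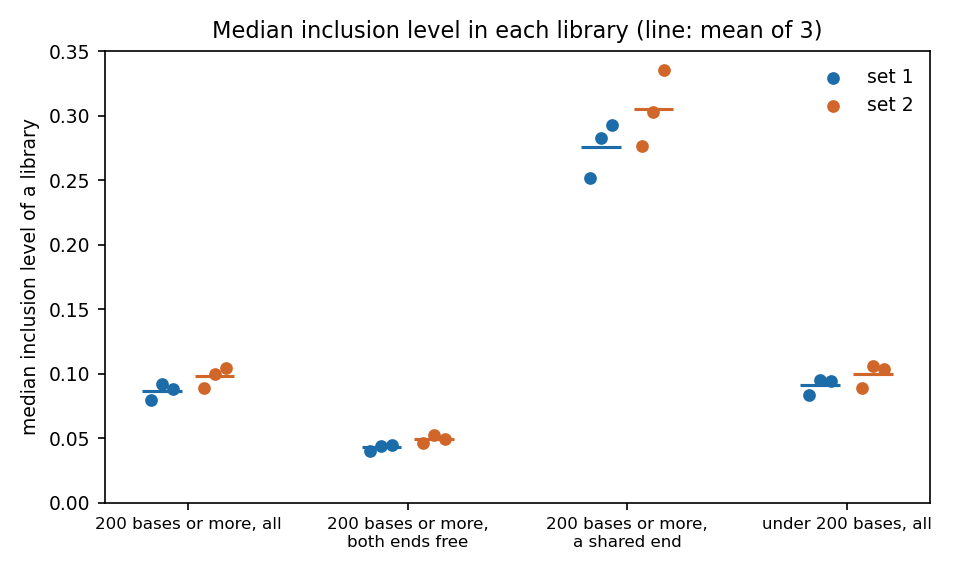
Median inclusion level (vertical axis) of each library, in 4 classes of retained introns; points are libraries in the table's order, lines the mean of 3. Set 2 has the higher mean in each class, and the libraries of the sets overlap except for the introns with both ends free.

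The introns with a minor-type donor mostly had lower levels in set 1, though none passed the test. Of the 11 with enough reads 10 had the lower level in set 1 and 1, in Tcea2, the higher, and in 6 all libraries of set 1 lay below all of set 2, where 8.98% of the 1292 introns did. Unadjusted p was under 0.05 in 7, all lower in set 1, and no adjusted p was under 0.05. The median ratio of the set 1 to the set 2 level was 0.648, with a range of 0.401 to 1.05, against 0.954 for introns with other donors, and the median change was -0.0228 against -0.00389. Among the 617 introns with other donors and a level in the same range, up to 0.25, 65.6% were lower in set 1 with a median change of -0.00816, against 10 of 10 minor-type introns and -0.0324. The 8 with both ends free were all lower in set 1, and leaving out 1 library at a time left 10 or 11 of the 11 lower. These letters were picked out after the values were seen, so the counts are a description with no test of their own.

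Rpl4 encodes a protein of the large ribosomal subunit, and its minor-type intron, the third of 9, contains Snord16a. It stood at 0.0401, 0.032 and 0.0266 in set 1 and 0.0487, 0.0498 and 0.048 in set 2, from 9619 reads on average. All of set 1 lay below the narrow range of set 2, and its p, 0.000123 unadjusted and 0.147 adjusted in the quasi-binomial test, was the smallest of all the introns described here. The authors' deposited table gave it a difference of -0.016 and an adjusted p of 0.00132. The values there match an adjustment within the retained introns alone, while the quasi-binomial one ran over events of every kind. Selenom, a selenoprotein of the endoplasmic reticulum, stood at 0.0176, 0.016 and 0.012 in set 1 and 0.0432, 0.0261 and 0.0448 in set 2, again without overlap, at the lowest ratio of the 11 introns.

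Genes of DNA replication held 2 of these introns. Rfc5, a subunit of the clamp loader, stood at 0.102, 0.0947 and 0.0738 in set 1 and 0.114, 0.165 and 0.17 in set 2, fully apart. Pole2, a subunit of DNA polymerase epsilon, stood at 0.071, 0.0308 and 0.0329 in set 1 and 0.0791, 0.07 and 0.156 in set 2, where library 1 of set 1 reached just into the range of set 2. Tmem258, a subunit of the oligosaccharyltransferase, stood at 0.0236, 0.022 and 0.0164 and at 0.0301, 0.0356 and 0.0322, and Cnep1r1, the partner of a nuclear envelope phosphatase, at 0.0935, 0.0681 and 0.0783 and at 0.105, 0.127 and 0.133. Neither of these overlapped, and the Cnep1r1 intron has a shared acceptor end.

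In 4 more minor-type introns the sets overlapped. Lsm5, a protein of the Lsm rings of U6 and of RNA decay, stood at 0.0317 to 0.0393 in set 1 and 0.0342 to 0.0785 in set 2. Pqlc2, a lysosomal amino acid exporter, ran from 0.038 to 0.12 and from 0.113 to 0.158, and Myh9, a nonmuscle myosin heavy chain, from 0.0142 to 0.0253 and from 0.0181 to 0.0261. Tcea2, a transcription elongation factor, stood at 0.957, 0.806 and 0.917 in set 1 and 0.745, 0.818 and 1 in set 2, with only 5 and 10 spliced reads and a shared donor end. One of the 11 introns is counted above but not reported singly here, and the twelfth, in Derl2, had a mean of 17.8 reads and was not tested. Outside the length limit, the 2 shorter introns with these letters, in Rfx5 and Polr2e, stood at 0.134 and 0.0952 in set 1 and at 0.188 and 0.118 in set 2.

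**Figure D3:**
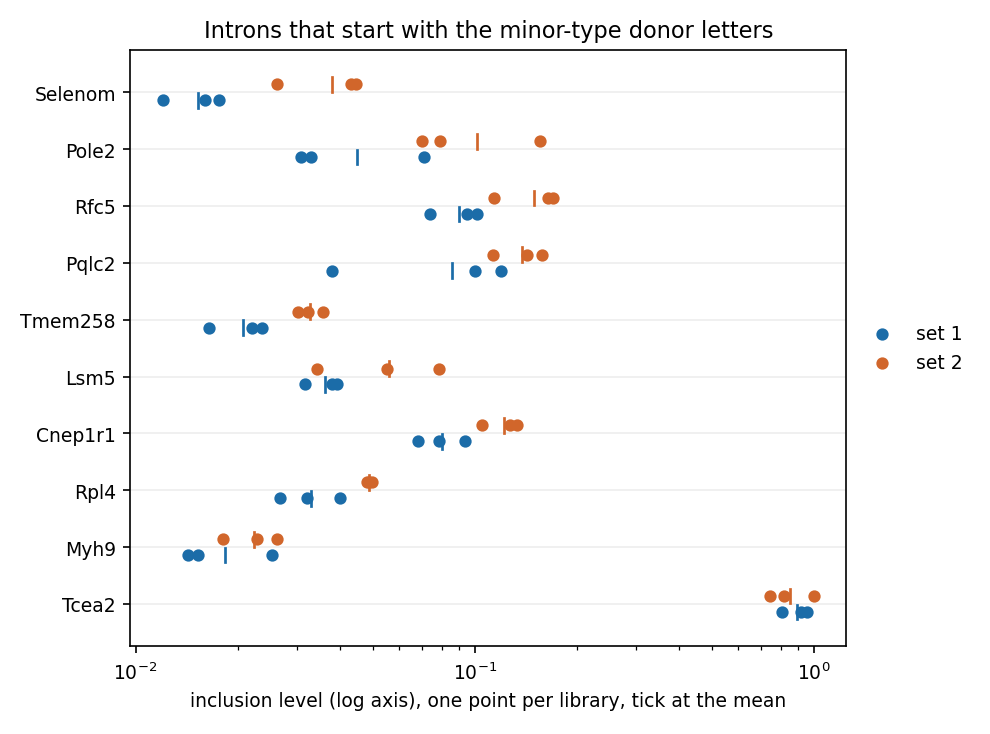
Inclusion level (horizontal axis, logarithmic) of 10 of the 11 tested introns with a minor-type donor (the other is not reported singly here), 1 point per library and a tick at each set's mean, ordered by the ratio of the set means. The mean of set 1 lies below that of set 2 in each except Tcea2.

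**Figure D4:**
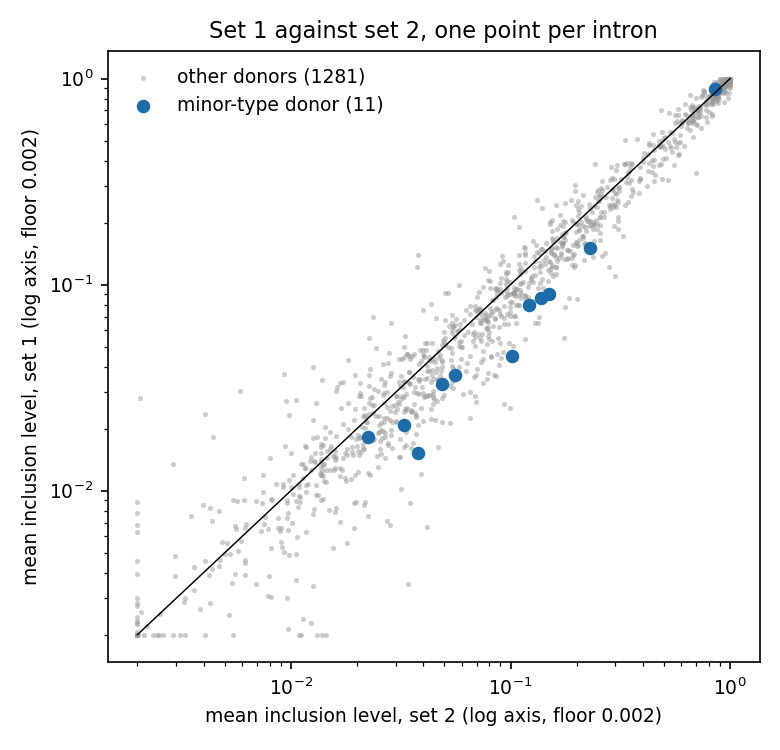
Mean inclusion level in set 1 (vertical axis) against set 2 (horizontal axis), both logarithmic with levels below the axis drawn at its edge; each point is 1 of the 1292 introns, and the line marks equal levels. The 11 minor-type introns, in blue, lie below the line except Tcea2 near the top.

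The authors' deposited table called 18 of the 1602 introns (1.12%) at an adjusted p under 0.05 with a difference of 0.10 or more, against 0.645% of all 45595 events and 1.04% of all retained introns. In the authors' deposited table these calls were 15 lower and 3 higher in set 1, and 0.287% and 0.357% of all events were called in those directions. Only 10 had a mean of 20 reads or more, all of them lower in set 1, and none of the 10 passed the quasi-binomial test (each adjusted p was 0.746). The adjusted p in the deposited table matches an adjustment within the 2703 retained introns alone. That of the quasi-binomial test ran over 39419 events of every kind, so the 2 are not on the same footing. Both ends were free in 7 of the 18 and in 3 of the 10. At any size, the authors' deposited table gave 37 introns (2.31%) an adjusted p under 0.05, 33 lower and 4 higher in set 1, against 1.13% of all events, or 0.518% in the lower direction. Of these, 5 were minor-type introns, among them those of Rpl4, Selenom, Rfc5 and Pole2, which is 41.7% of the 12 with such a donor.

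The 3 called introns with free ends lay in Spns1, Gpm6b and Galt. Spns1, a lysosomal transporter, stood at 0.781, 0.714 and 0.808 in set 1 and 0.973, 0.85 and 1 in set 2. Its event held 23 spliced reads in set 1 and 7 in set 2, and no annotated transcript splices it out. Gpm6b, a membrane glycoprotein of neurons and glia whose intron lies in the 3′ UTR, stood at 0.67, 0.671 and 0.679 in set 1 and 0.821, 0.878 and 0.79 in set 2. Galt, an enzyme of galactose breakdown, stood at 0.0286, 0.136 and 0 in set 1 and 0.224, 0.167 and 0.137 in set 2. In each of these introns every library of set 1 lay below every library of set 2; for Galt the nearest libraries stood at 0.136 and 0.137, and the sets rested on 8 and 32 border reads. Their unadjusted p in the quasi-binomial test was 0.011, 0.00942 and 0.0133.

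The other 7 had a shared end. 1600002H07Rik had the largest difference, at 0.333, 0.4 and 0.309 in set 1 and 0.625, 0.544 and 0.923 in set 2, from 28.3 reads on average, at a border that also lies under an exon of another gene. Atg16l2, an autophagy protein, stood at 0.156, 0.0714 and 0.103 and at 0.368, 0.246 and 0.286. Aprt, the adenine salvage enzyme, stood at 0.557, 0.606 and 0.683 and at 0.705, 0.778 and 0.869. Each of these 3 was apart between the sets.

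Pomt1, a protein O-mannosyltransferase, stood at 0.175, 0.0682 and 0.123 in set 1 and 0.205, 0.271 and 0.368 in set 2. Vps9d1 stood at 0.205, 0.159 and 0.153 and at 0.333, 0.316 and 0.323. Dab2ip, a Ras GTPase-activating protein, stood at 0.662, 0.646 and 0.648 and at 0.818, 0.765 and 0.747. These also were apart. Skiv2l, a helicase of the SKI complex in RNA decay, overlapped, at 0.714, 1 and 0.846 in set 1 and 0.95, 1 and 1 in set 2, with 8 and 1 spliced reads.

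**Figure D5:**
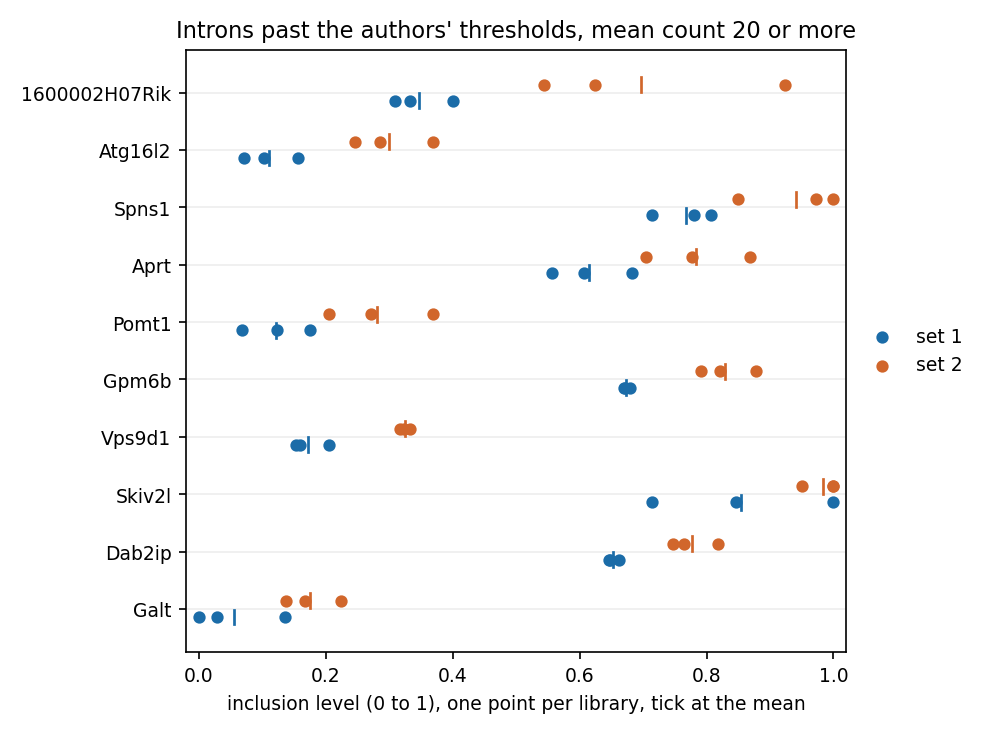
Inclusion level (horizontal axis, 0 to 1) of the 10 introns past the authors' thresholds with a mean of 20 reads or more, 1 point per library and a tick at each set's mean. Set 1 lies below set 2 in each, and only in Skiv2l do the points overlap.

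The 8 called introns under 20 reads had few reads behind large differences. In the authors' deposited table those of Nfatc4, 4933431E20Rik, Mfsd2b, Dph2 and Sik2 were lower and those of Zfr2, Cdk10 and D830044I16Rik higher in set 1. Nfatc4 had 4 border and 4 spliced reads in set 1 and 11 and 1 in set 2. D830044I16Rik had 8 and 0 against 8 and 9. Dph2, an enzyme of diphthamide synthesis, had 47 and 7 against 47 and 0, and Sik2, a salt-inducible kinase, 52 and 7 against 55 and 0, so that in both the difference lay in 7 spliced reads.

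Smaller differences were found in introns with many reads. Celf3, an RNA-binding protein of neurons, stood at 0.0425, 0.0462 and 0.05 in set 1 and 0.0798, 0.0785 and 0.102 in set 2, apart, with an unadjusted p of 0.00109. Trnau1ap, which takes part in selenocysteine incorporation, stood at 0.0465, 0.016 and 0.0456 and at 0.0782, 0.0872 and 0.0915, apart, with a p of 0.00132. Both were among the 5 smallest p of the quasi-binomial test, beside Rpl4, Rps27a and Selenom, with adjusted p of 0.566 for Celf3 and 0.619 for Trnau1ap. Rps27a, a ubiquitin and ribosomal protein fusion, went the other way, at 0.0129, 0.00657 and 0.00749 in set 1 and 0.00588, 0.00477 and 0.00562 in set 2. The set 1 values lay above set 2, library 1 the most, and the difference was 0.00357 with 13587 reads on average. This Rps27a intron has a shared donor end. Its adjusted p was 0.187 in the quasi-binomial test, over all events tested, and 0.993 in the authors' deposited table, over retained introns alone.

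Other introns with an unadjusted p under 0.05 were chosen for mention after their values were seen. The Anapc2 intron, in a subunit of the anaphase-promoting complex, stood at 0.0335, 0.0324 and 0.0504 in set 1 and 0.0817, 0.0517 and 0.0778 in set 2. That of Wipi2, an autophagosome protein, ran from 0.0217 to 0.0345 and from 0.0353 to 0.1, and that of Ubp1, a transcription factor, from 0.138 to 0.177 and from 0.201 to 0.276. Each of the 3 was apart and lower in set 1. In Pick1, a PDZ protein of receptor trafficking, the intron at chr15:79245353-79245977 was apart, at 0.0502 to 0.0935 and 0.114 to 0.162, while 2 more introns of the gene overlapped. Bcas2, a protein of the Prp19 complex, had 1 of 3 events apart, at 0.0122 to 0.0158 and 0.0289 to 0.0331. These events overlap: the one apart has a shared donor end, where a longer event starts that covers the other 2.

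Higher levels in set 1 were fewer. The intron of Bscl2, which encodes seipin, stood at 0.0709, 0.0606 and 0.0769 in set 1 and 0.00806, 0.0249 and 0.038 in set 2, from 17 and 13 border reads. That of Ppid, a cyclophilin, stood at 0.13, 0.0973 and 0.0877 and at 0.074, 0.0758 and 0.0861. Both were apart, with the nearest libraries of Ppid at 0.0877 and 0.0861. An intron of Phb2, a prohibitin, stood at 0.00996, 0.0769 and 0.00853 in set 1 and 0.014, 0.021 and 0.0134 in set 2, so that its higher mean in set 1 came from library 2 alone, and the other 2 libraries lay below set 2; its unadjusted p was 0.0136, and 0.732 with limma on logit levels.

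Groups of genes, listed by function, mostly split between the directions, and in none did an intron pass the quasi-binomial test. The lists were drawn up with earlier results of these data known, and their counts stand beside the 63.0% of all 1292 introns that were lower in set 1. Of 41 genes known for detained introns, 19 had 36 introns, with a median level of 0.344; 14 were lower and 22 higher in set 1. Nuclear speckle genes had 12 introns, 4 lower and 8 higher, with Srrm1 at 0.0669 to 0.107 in set 1 and 0.0847 to 0.103 in set 2. SR proteins and their kinases had 11, 6 lower and 5 higher; the kinase Clk2 ran from 0.0802 to 0.104 and from 0.0686 to 0.134. The hnRNP genes had 3, in Hnrnph1, Hnrnpk and Ptbp1, 2 lower and 1 higher. Core spliceosome genes had 9, 4 lower and 5 higher. Their Sf3b1 intron, with a shared donor end, stood at 0.175, 0.139 and 0.14 in set 1 and 0.108, 0.128 and 0.111 in set 2. It was apart and higher in set 1, with an unadjusted p of 0.049 in the quasi-binomial test.

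RNA decay genes had 14 introns, 10 lower and 4 higher in set 1, among them Skiv2l and Exosc2, an exosome subunit. Exosc2 stood at 0.102, 0.0838 and 0.0706 in set 1 and 0.119, 0.118 and 0.114 in set 2. Its acceptor end is shared, and an exon of another gene lies over a border. The 56 genes known to hold minor-spliceosome introns gave 4 with enough reads, all lower; those of Hps1, Thoc2 and Nol11 have other donors. Translation initiation and elongation factors had 6 introns, all higher in set 1 and none with an unadjusted p under 0.05; Eif4a1 ran from 0.0203 to 0.0282 and from 0.0135 to 0.0277. Genes of aminoacyl-tRNA synthetases had 5, 3 lower and 2 higher. Genes of DNA damage response and repair had 11, 7 lower and 4 higher, with the Trp53 intron at 0.0105 to 0.0257 and 0.0152 to 0.028, and cell cycle genes also 11, 7 and 4. Neurodegeneration-linked genes had 8, 6 lower and 2 higher; the last intron of Tardbp, at 0.958 or more in each library, has a shared end. Synapse and ion channel genes had 3, 1 lower and 2 higher, and of the neuron markers only Gata2 had an intron, at 0.0476 to 0.417 and 0.171 to 0.444.

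Introns that hold a small RNA numbered 40, of which 33 hold a snoRNA, in 25 genes. The 37 with enough reads had a median level of 0.301, and 21 (against 16) were lower in set 1. With free ends the median was 0.0457 over 12 introns. The list of known snoRNA and small RNA hosts gave 25 introns, 13 lower and 12 higher. The Zfas1 intron that holds Snord12 stood at 0.0736, 0.0686 and 0.0336 in set 1 and 0.0892, 0.0862 and 0.0629 in set 2, overlapping, with an unadjusted p of 0.0084. Rack1, a scaffold protein of the small ribosomal subunit whose intron holds Snord96a, stood at 0.0193, 0.0224 and 0.0191 in set 1 and 0.0204, 0.0231 and 0.0196 in set 2, nearly alike from 12707 reads on average. Among the 20 introns of ribosomal protein genes the median level was 0.00888 and 12 were lower in set 1. GC-AG introns with enough reads numbered 24, with a median level of 0.204, and 18 were lower in set 1. As with the gene lists, these counts stand beside the 63.0% of all 1292 introns that were lower in set 1.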

How the data were processed

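Total RNA of N2a cells was extracted with Trizol and sequenced from NEBNext Ultra libraries, as the labels' protocols state. Bowtie2 2.2.3, HISAT2 2.1.0, HTSeq 0.6.0 and build mm10 are named, without roles, in the submitters' processing notes. The layout of the deposited table is that of rMATS, per the file headers; for its version, read filter and annotation the sources used here give nothing. Per the file headers it holds, for 3 libraries per set, junction read counts and inclusion levels as lists parted by commas, besides form lengths, p-values and adjusted p. Recomputing the inclusion levels from counts and lengths gave the deposited values to within 0.0005.

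Coordinates are 1-based. GENCODE vM21 (GRCm38) gave gene matches, positions, shared ends and small RNAs, and intron sequences were read from its transcripts; all 1602 introns had a gene match and a sequence. Reading frames were followed in annotated coding transcripts.

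Differences between the sets were tested with a moderated quasi-binomial test written in R 4.3.3 with limma 3.58.1 for events whose mean count reached 20. It compares binomial deviances, moderates the dispersion along the count of the rarer form with a prior from events with 5 or more such reads summed over libraries, never goes below a dispersion of 1, is fitted within each kind of event, and is adjusted by Benjamini-Hochberg over all events. It was tried on simulated counts of retained introns alone, with a fixed spread between libraries and changes of 0.1 or more. Smaller changes, and an adjustment over events of every kind, were not simulated. For limma, levels were bounded to 0.01 and 0.99 before the logit. No p is given for the medians per library, because the introns were chosen with results known; an exact permutation test of 3 against 3 libraries could not go below 0.1. A further count-based test that had been intended as an alternative was not run. Other computing used Python 3.11.15, numpy 2.4.6, pandas 2.3.3, scipy 1.17.1 and matplotlib 3.10.9.

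The introns, the 16 gene lists and the tests were chosen with earlier results of these data known. Named introns are those past the authors' thresholds with 20 reads or more, the 5 of smallest p, the 8 best covered at levels of 0.10 to 0.90, the 5 of highest level at 50 reads or more, the 3 longest, up to 4 genes per list, up to 4 minor-type introns, and Hnrnpdl and Hnrnpd; a few that these rules named are not reported here, though counts over all introns include them. Named after their values were seen were the other minor-type introns, the introns called under 20 reads and those of Pick1, Wipi2, Anapc2, Bcas2, Phb2, U2af2, Trps1, Zbtb21, Maged2, Ywhag, Txn2, Cdkn1b, Bscl2, Ppid, Ubp1, Taf1d and Abraxas1. The split by shared ends and the 8-letter donor were settled after the data were seen; a 6-letter form was looked at first.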

Additional observations from a re-analysis of the deposited data

How the results depend on the processing

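No long intron was called with a minimum mean count of 10 or 50, without a filter, with a minimum change of 0.05, with limma on logit levels, with any 1 library left out or, added after seeing the data, with free ends only or with the dispersion prior taken from events with at least 1 or at least 30 reads of the rarer form. Those last 2 settings moved the count over all events from 11 to 13 and to 0, and leaving out 1 library gave 2 to 19. The set difference in the median level, -0.0113, was -0.00624 with free ends only and ranged from -0.0157 to -0.00788 with 1 library left out; it was -0.019 when levels were not scaled by form length. The difference in the pooled share of border reads, -0.945 percentage points, ranged from -1.32 to -0.726. That of the short introns, 1.72, turned to -0.225 without the 10 with the most border reads, a setting added after seeing the data, and ranged from 1.33 to 2.02 with 1 library left out. The long minus short difference, -0.00279, was -0.00792 without a filter on low counts, and the cause was not tested; with 1 library left out it ranged from -0.00487 to -0.00155. The 18 calls of the authors' deposited table fell to 3 at an adjusted p under 0.01, to 8 with a change of 0.20 or more, to 10 with a mean count of 20 and to 7 with free ends only, since fewer introns meet each rule. Over the 756 alternatives of the 108 named introns 1 adjusted p fell under 0.05, that of U2af2 with limma, and 67 turned the direction of a difference that was not called. No paired analysis was possible because the columns of the table carry no replicate numbers that tie them to the labels. Few reads are 1 limit: 310 of the 1602 introns were under the minimum and not tested.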
